A study of Mus musculus with 24 samples.

Results

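Myostatin, activin, and follistatin signalling was followed through 10 genes, taken by name from the gene tables. They were the ligand genes Mstn, Gdf11, and Inhba, the follistatin family genes Fst, Fstl1, and Fstl3, whose products are secreted, the receptors Acvr2b and Acvr1b, and the inhibitory Smads Smad6 and Smad7. All 10 were found once among the 56941 genes of the tables, and all 10 were among the 13318 genes with enough counts to be tested. Inhba, which encodes the subunit of activin A, was upregulated at 1 and 4 Hz, and so was Fst, which encodes follistatin. No member was called at 10 Hz against control, where 1.86% of all genes tested were called.

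RNA sequencing was performed on 24 muscle tissues grown from C2C12, a mouse myoblast line that fuses into contractile fibers. Every tissue, control included, had the genotype ChR2::tdTomato, so that its fibers carried the light-gated channel channelrhodopsin fused to a red fluorescent protein, and was differentiated on fibrin hydrogel in DMEM with horse serum and IGF-1. Light pulses at 1, 4, or 10 Hz were given daily for 30 min, and control tissues received no stimulation, with 6 libraries in each of the 4 conditions. C2C12 is an established line with no motor nerve, and the study describes spontaneous twitching in every condition, control included. The study calls the 6 samples of a condition biological replicates, all grown from the same line, and p-values measure the spread between those samples.

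Myostatin, GDF11, and the activins are ligands of the TGF-beta family, and myostatin is known as a brake on skeletal muscle growth. They bind a type II receptor such as ACVR2B, which recruits a type I receptor such as ACVR1B, and the complex phosphorylates Smad proteins that carry the signal to the nucleus. Follistatin and follistatin-like 3 bind these ligands outside the cell and keep them from the receptor, and SMAD6 and SMAD7 inhibit the pathway inside the cell.

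The libraries held 4.09 to 15.2 M counts, where M is mega, with 4.19 to 7.65 M in control and up to 15.2 M at 1 Hz. Levels are given as CPM, counts per M of the TMM-scaled library, and comparisons between genes as TPM, which also divides by transcript length. The labelled tissue was checked against 10 muscle markers such as Acta1 and Mylpf, which were all above 0 in every library. Their summed TPM was 9137 to 11646 in control, 14524 to 18676 at 1 Hz, 14567 to 21076 at 4 Hz, and 9650 to 15410 at 10 Hz. The 7 genes of undifferentiated or cycling cells summed to 41.8 to 65.4 TPM in control, 40.3 to 50.5 at 1 Hz, 28.5 to 47.8 at 4 Hz, and 45.9 to 55.8 at 10 Hz. These sums rested on few genes. In the muscle list not every gene followed the sum. Ttn had a mean of 45.9 TPM in control, 43.7 at 1 Hz, 37.6 at 4 Hz, and 43.2 at 10 Hz. Ckm had 91.9, 98.3, 91.5, and 79.2 TPM in that order. Des was higher than control at 1 and 4 Hz but was at 872 TPM in control and 828 at 10 Hz. The remaining muscle markers had higher means than control at every frequency. In the second list Cdk1, with 28.6 TPM in control and 20.2 at 1 Hz, and Myf5 carried the sum, while Pax7 had 0.566 and 0.953 TPM, Top2a 3.19 and 4.29, and Mki67 0.148 and 0.223. The 9 markers of other cell types summed to 114 to 176 TPM in control, 125 to 168 at 1 Hz, 93.6 to 132 at 4 Hz, and 99.8 to 133 at 10 Hz, most of it from Cd68, while Ptprc, the leukocyte marker, was at 0 in 23 libraries. Pdgfra, a fibroblast marker, had a mean of 4.75 TPM in control and 7.60 at 1 Hz. In bulk RNA, fewer cells of a kind and less RNA per cell cannot be told apart, and the part of cell composition in the results below was not tested.

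A further property of the libraries differed between control and the 1 and 4 Hz conditions. Small RNAs without a poly(A) tail, of which 31 of 34 listed were in the table, took 98.4 to 169 CPM of the total in control but 15.6 to 70.2 at 1 Hz and 19.5 to 51.1 at 4 Hz, with no overlap with control. At 10 Hz the range was 38.5 to 274 CPM. The labels mention ribodepletion of low-input samples without naming those samples. Each call below was therefore also examined in a fit with this share as a covariate.

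Genes of secreted proteins made up most of the members' RNA in control tissue. On the TPM scale the order of the mean levels was Fstl1 with 75.3, Inhba with 73.4, Fstl3 with 64.3, Fst with 39.4, Smad7 with 27.2, Gdf11 with 9.495, Acvr1b with 5.39, Smad6 with 1.15, Acvr2b with 0.832, and Mstn with 0.647. The libraries' ranges of Fstl1, Inhba, and Fstl3 overlapped in that order, as did those of Fst and Smad7 and those of Smad6, Acvr2b, and Mstn, while Fstl3 and Fst, Smad7 and Gdf11, Gdf11 and Acvr1b, and Acvr1b and Smad6 were separate. Inhba moved to the top of the order under every stimulation, with a mean of 194 TPM at 1 Hz, 129 at 4 Hz, and 88.9 at 10 Hz. At 1 and 4 Hz its range was separate from that of Fstl1, the next gene, whereas at 10 Hz the ranges overlapped. Mstn, the best known of the ligands, was among the 3 lowest members in every condition.

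**Figure D1:**
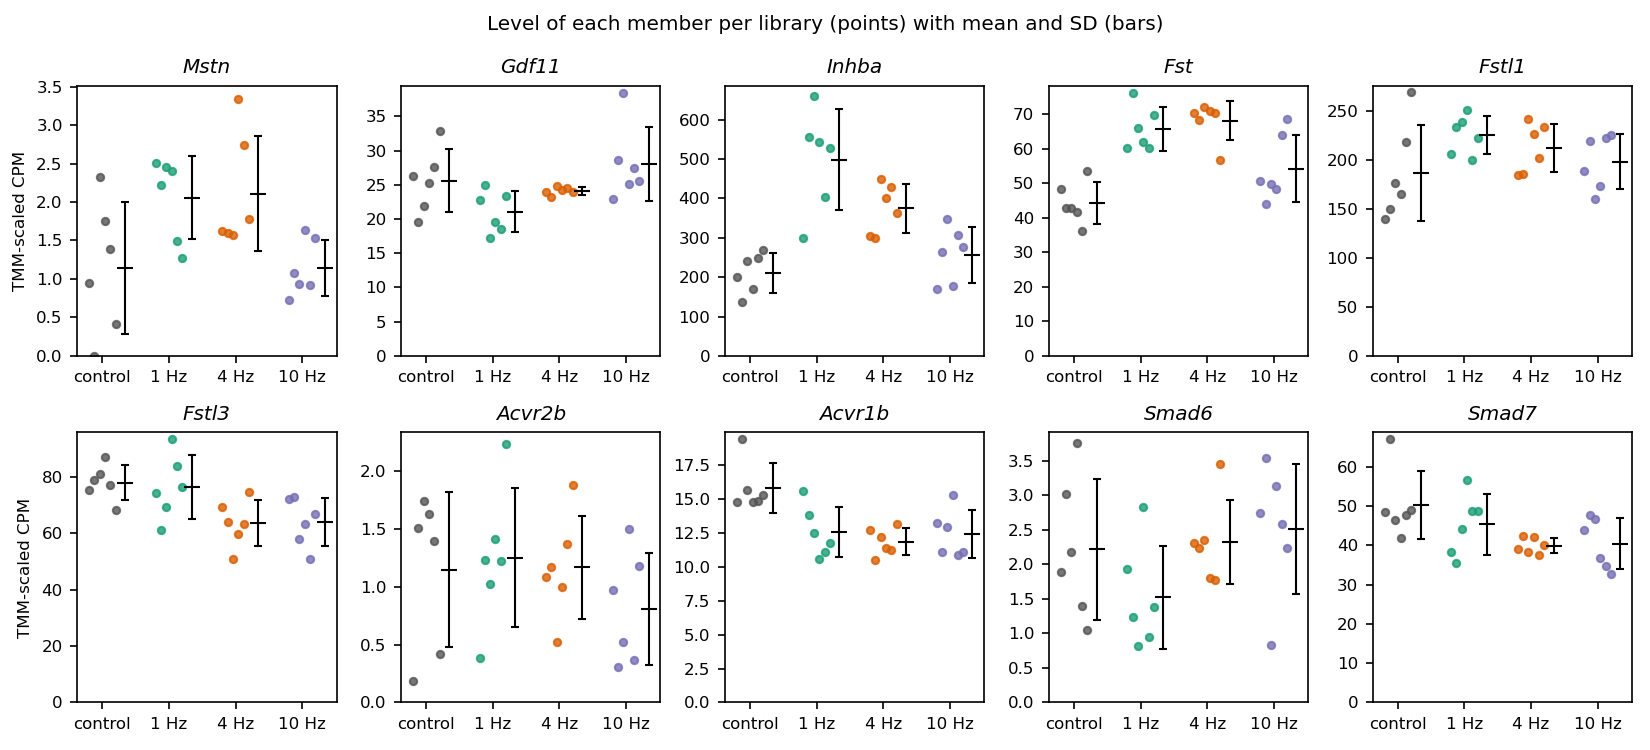
TMM-scaled CPM of the 10 members in each of the 24 libraries (points, 6 per condition), with the mean and SD as bars beside them. The Inhba and Fst points at 1 and 4 Hz all lie above the control points, and the Mstn, Acvr2b, and Smad6 panels end below 4 CPM.

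Among the ligands, Inhba showed the largest difference. It lies on chromosome 13 from 16186373 to 16206206 on the plus strand (GRCm39), with 5 annotated transcripts, the canonical one with 3 exons. The lncRNAs 4933412O06Rik and Gm48444 overlap it on the minus strand, and since the sources used here do not give whether counting used strand, reads of the overlap cannot be assigned with certainty. The same limit holds for Gdf11, Fst, Fstl3, Acvr2b, and Acvr1b, which also overlap genes on the opposite strand. Control libraries held 136 to 270 CPM of Inhba with a median of 220, and 1 Hz libraries held 299 to 659 with a median of 537. The 4 Hz libraries held 301 to 449 CPM with a median of 381, and the 10 Hz libraries 170 to 348 with a median of 270. Every library of both 1 and 4 Hz was above the highest control library, while the 10 Hz libraries overlapped with control.

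The Inhba means were 211 ± 51.3 CPM in control, 498 ± 128 at 1 Hz, 375 ± 62.6 at 4 Hz, and 257 ± 70.8 at 10 Hz (SD, n = 6 each). Against control the log2(fold change) was 1.24 ± 0.19 (SE) at 1 Hz, or 2.36-fold, with an edgeR adjusted p of 2.79e-05, and 0.83 ± 0.19 at 4 Hz, or 1.78-fold, with an adjusted p of 0.00103. At 10 Hz it was 0.28 ± 0.19 (edgeR adjusted p = 0.418). Inhba was downregulated at 10 Hz relative to 1 Hz, with a log2(fold change) of -0.96 ± 0.19 (edgeR adjusted p = 2.99e-04) and 4 of 6 libraries at 10 Hz below every library at 1 Hz. It was also lower at 10 Hz than at 4 Hz by the same test (-0.54 ± 0.19, adjusted p = 0.0348, 4 of 6 libraries below every library at 4 Hz). The difference between 4 and 1 Hz, -0.41, did not pass (edgeR adjusted p = 0.144). The call for 10 Hz against 4 Hz was lost without 4 Hz replicate 3 (-0.49), 4 (-0.53), or 5 (-0.51) or 10 Hz replicate 1 (-0.46), 2 (-0.55), or 4 (-0.46), with edgeR adjusted p-values of at most 0.0885.

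With the small RNA share as a covariate, no Inhba call was kept: the log2(fold change) was 0.99 ± 0.31 at 1 Hz (edgeR adjusted p = 0.259), 0.59 at 4 Hz (adjusted p = 0.321), -0.75 for 10 against 1 Hz (adjusted p = 0.165), and -0.35 for 10 against 4 Hz (adjusted p = 0.885). That fit called few genes at all, 0.00751% of those tested at 1 Hz, 1.64% at 4 Hz, 1.53% at 10 Hz, 3.09% between 4 and 1 Hz, 1.34% between 10 and 1 Hz, and 0% between 10 and 4 Hz, so that the lost calls are not a result about Inhba. Because the ranges of the share are separate for control and for 1 and 4 Hz, the covariate and stimulation cannot be told apart there.

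**Figure D2:**
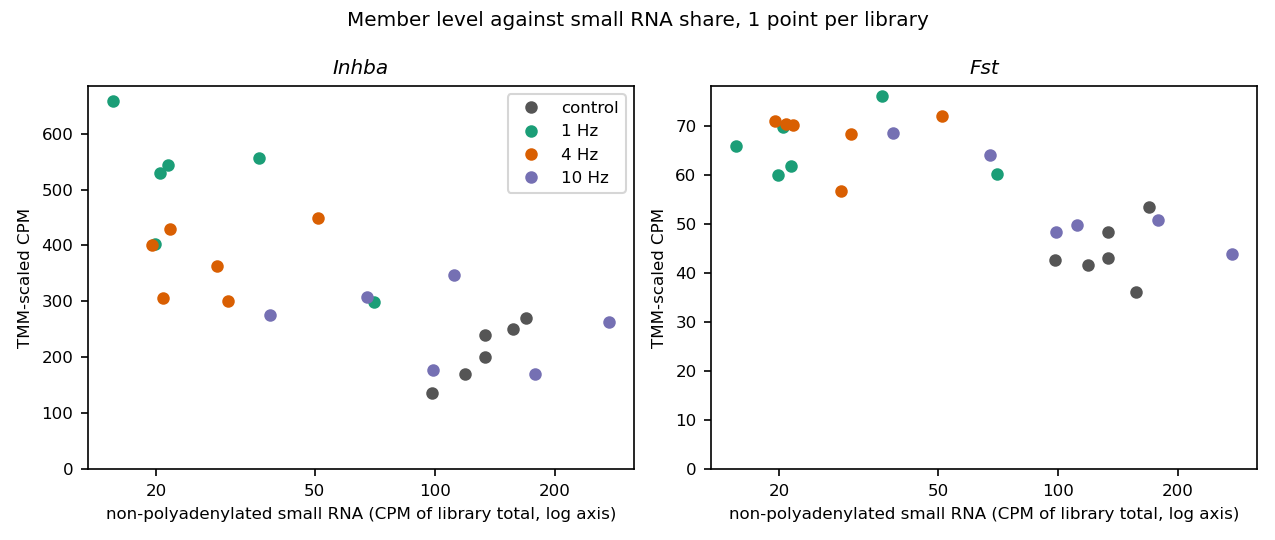
TMM-scaled CPM of Inhba (left) and Fst (right) against the share of non-polyadenylated small RNA (CPM of the library total, log axis), 1 point per library, colored by condition. Control libraries lie at 98.4 CPM of small RNA or more and the 1 and 4 Hz libraries at 70.2 or less, so that condition and share separate the same libraries.

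The ratio of CPM to TPM varied more for Inhba than for most members. This ratio moves with the transcript length that salmon assigned to a gene in a library, and for Inhba it ranged from 2.10 to 4.06, a factor of 1.93, over the 24 libraries. For Gdf11, with 1 annotated transcript, the factor was 1.26. The larger factors were those of Smad7, 2.10, and of Acvr2b, 6.72, which had 1 to 21 counts per library. On the log2(TPM + 1) scale the Inhba difference was 1.36 at 1 Hz (limma adjusted p = 4.63e-06) and 0.80 at 4 Hz (adjusted p = 2.44e-04), and that between 4 and 1 Hz passed with -0.56. On this scale the median of all genes stood at -0.06 at 1 Hz, -0.16 at 4 Hz, and -0.10 between 4 and 1 Hz.

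Mstn lies on chromosome 1 from 53100799 to 53107240 on the plus strand (GRCm39) and was near the limit of detection, with 0 to 37 counts per library. Control libraries held 0 to 2.32 CPM with a median of 1.17, and control replicate 2 had no count. The 1 Hz libraries held 1.27 to 2.51 CPM with a median of 2.31, the 4 Hz libraries 1.57 to 3.34 with a median of 1.70, and the 10 Hz libraries 0.726 to 1.64 with a median of 1.01. Each stimulated range overlapped with that of control. The log2(fold change) was 0.78 ± 0.40 at 1 Hz (edgeR adjusted p = 0.134), 0.83 ± 0.39 at 4 Hz (adjusted p = 0.0940), and -0.07 at 10 Hz (adjusted p = 0.949), none of which passed. Between 10 and 1 Hz it was -0.85 ± 0.39 (edgeR adjusted p = 0.0857), and between 10 and 4 Hz -0.90 ± 0.38 (adjusted p = 0.0845), with 5 of 6 libraries at 10 Hz below every library at 4 Hz. With each library left out in turn, Mstn passed in 1 of 24 fits for each of the comparisons named next. Without control replicate 3 it passed at 1 Hz (1.12, edgeR adjusted p = 0.0466) and 4 Hz (1.18, adjusted p = 0.0304). Without control replicate 2 it passed for 10 against 1 Hz (-0.85, edgeR adjusted p = 0.0368) and 10 against 4 Hz (-0.91, adjusted p = 0.0357). That library is in neither of these comparisons and enters only through the shared fit. A fit of only the 12 libraries compared also called Mstn for 10 against 1 Hz (edgeR adjusted p = 0.0264) and 10 against 4 Hz (adjusted p = 0.0390).

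Gdf11, the closest relative of Mstn, is overlapped on the opposite strand by the protein-coding gene Sarnp and was not called in any comparison. Its levels were 19.6 to 32.9 CPM in control with a median of 25.8, 17.2 to 24.9 at 1 Hz with a median of 21.2, 23.1 to 24.9 at 4 Hz with a median of 24.1, and 23.0 to 38.4 at 10 Hz with a median of 26.5. The ranges overlapped in all comparisons with control, where the log2(fold change) was -0.29 ± 0.12 at 1 Hz (edgeR adjusted p = 0.0725), -0.08 at 4 Hz (adjusted p = 0.622), and 0.14 at 10 Hz (adjusted p = 0.567). At 10 Hz it was higher than at 1 Hz by 0.42 ± 0.12 (edgeR adjusted p = 0.00800), which passed the adjusted p but not the fold threshold of 0.5.

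Promoter sequences are shown for Inhba and for Inhbb, the gene of the second activin subunit, since both were upregulated at 1 and 4 Hz, and for Mstn as the ligand near the detection limit. They are RefSeq sequences (table build GRCm38.p6) running from 250 bases before to 50 bases after the gene's start, 300 in all, and were placed by exact match on GRCm39 at chr13:16186186-16186485 (plus strand) for Inhba, chr1:119349929-119350228 (minus strand) for Inhbb, and chr1:53100549-53100848 (plus strand) for Mstn. Capitals mark matches, on either strand, to the motifs searched. The letters searched for the AP-1 element were TGANTCA. Those for the cAMP response element were TGACGTCA, and a SMAD element was taken as CAGACA. For the E-box, a site of myogenic factors, the letters were CAGCTG, and for the TATA box they were TATAAA.
Inhba: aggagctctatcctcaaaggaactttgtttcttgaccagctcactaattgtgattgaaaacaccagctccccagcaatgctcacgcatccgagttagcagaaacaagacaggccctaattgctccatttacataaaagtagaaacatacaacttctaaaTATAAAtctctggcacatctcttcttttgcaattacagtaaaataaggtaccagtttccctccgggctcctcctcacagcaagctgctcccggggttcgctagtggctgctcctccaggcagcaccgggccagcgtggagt
Inhbb: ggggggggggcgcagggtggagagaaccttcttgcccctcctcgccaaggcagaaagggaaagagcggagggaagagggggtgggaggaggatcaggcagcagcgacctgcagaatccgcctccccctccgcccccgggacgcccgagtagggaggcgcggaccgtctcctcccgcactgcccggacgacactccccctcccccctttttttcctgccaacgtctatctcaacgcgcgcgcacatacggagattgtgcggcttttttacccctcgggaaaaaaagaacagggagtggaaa
Mstn: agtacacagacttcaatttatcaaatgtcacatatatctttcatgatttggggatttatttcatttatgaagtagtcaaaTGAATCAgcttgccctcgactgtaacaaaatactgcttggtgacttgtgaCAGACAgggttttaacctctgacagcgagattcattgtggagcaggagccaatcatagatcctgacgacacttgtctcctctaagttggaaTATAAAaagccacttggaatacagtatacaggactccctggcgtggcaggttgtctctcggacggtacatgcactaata

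The Mstn window held TGANTCA at -170 to -164 from its start, CAGACA at -120 to -115, and TATAAA at -29 to -24. In the Inhba window only TATAAA matched, at -91 to -86, and in the Inhbb window none of these motifs did. Of all 32851 promoters of that length, 7.808% held TGANTCA, 1.79% TGACGTCA, 21.043% CAGACA, 16.301% CAGCTG, and 13.616% TATAAA. RefSeq placed the start of Inhba 2547 bases upstream of the canonical GENCODE start, so the window shows 1 of its annotated starts, while for Mstn both starts were the same base. The 8 members with a promoter entry included Gdf11, with CAGCTG at -153 to -148 and TATAAA at -185 to -180. They also included Fstl3, with CAGACA at -162 to -157 and TATAAA at -29 to -24. All of these are matches of letters, and whether they act as elements was not tested.

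Of the follistatin family, Fst was the one member called. It lies on chromosome 13 from 114588731 to 114595521 on the minus strand (GRCm39), and 2 lncRNAs overlap it on the plus strand. Its levels were 36.2 to 53.6 CPM in control with a median of 42.9, 60.1 to 76.2 at 1 Hz with a median of 63.9, 56.9 to 72.0 at 4 Hz with a median of 70.3, and 44.0 to 68.6 at 10 Hz with a median of 50.2. All libraries at 1 and 4 Hz were above the highest control library, and 2 of 6 libraries at 10 Hz were.

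Fst means were 44.3 ± 5.98 CPM in control, 65.7 ± 6.34 at 1 Hz, 68.2 ± 5.67 at 4 Hz, and 54.3 ± 9.77 at 10 Hz (SD, n = 6 each). The log2(fold change) was 0.57 ± 0.10 at 1 Hz, or 1.48-fold (edgeR adjusted p = 1.99e-04), and 0.62 ± 0.10 at 4 Hz, or 1.54-fold (adjusted p = 4.74e-05). At 10 Hz it was 0.29 ± 0.10 (edgeR adjusted p = 0.1004). The levels at 10 Hz differed from 1 Hz by -0.28 (edgeR adjusted p = 0.0357) and from 4 Hz by -0.33 (adjusted p = 0.0200), both short of the fold threshold, and 4 and 1 Hz differed by 0.05 (adjusted p = 0.781). The adjusted p between 10 and 1 Hz was no longer below 0.05 without any of 7 libraries, replicates 2, 3, and 6 at 1 Hz and 1, 2, 3, and 4 at 10 Hz, where the difference was -0.28 to -0.22 (edgeR adjusted p of at most 0.0962), nor was that between 10 and 4 Hz without 10 Hz replicate 2 (-0.28, adjusted p = 0.0600). The calls lie close to that threshold: scaling by total count gave 0.49 at 1 Hz, and limma on log2(TPM + 1) gave 0.41 at 4 Hz, on a scale where the median of all genes shifted by -0.16. In the fit with the small RNA covariate Fst was at 0.31 at 1 Hz (edgeR adjusted p = 0.530) and 0.37 at 4 Hz (adjusted p = 0.217).

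Fstl3, which binds the same ligands as follistatin, was not called in any comparison. It ranged from 68.4 to 87.1 CPM in control with a median of 78.2, from 61.2 to 93.7 at 1 Hz with a median of 75.3, from 51.1 to 74.6 at 4 Hz with a median of 63.8, and from 51.0 to 72.9 at 10 Hz with a median of 65.2. At 4 Hz its log2(fold change) of -0.29 ± 0.10 passed the adjusted p alone (edgeR adjusted p = 0.0236), with 4 of 6 libraries below every control library. That pass was lost without control replicate 4 (-0.26, edgeR adjusted p = 0.0570) or 4 Hz replicate 3 (-0.24, adjusted p = 0.0650). The values at 1 Hz, -0.03 (adjusted p = 0.843), and at 10 Hz, -0.28 (adjusted p = 0.101), did not pass in edgeR. Fstl1, a secreted glycoprotein of the same fold that is not known as a strong activin antagonist, ranged from 139 to 269 CPM in control, 201 to 252 at 1 Hz, 185 to 242 at 4 Hz, and 160 to 226 at 10 Hz. Its groups overlapped throughout and its log2(fold change) was 0.28 at 1 Hz (edgeR adjusted p = 0.0868), 0.19 at 4 Hz, and 0.09 at 10 Hz.

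**Figure D3:**
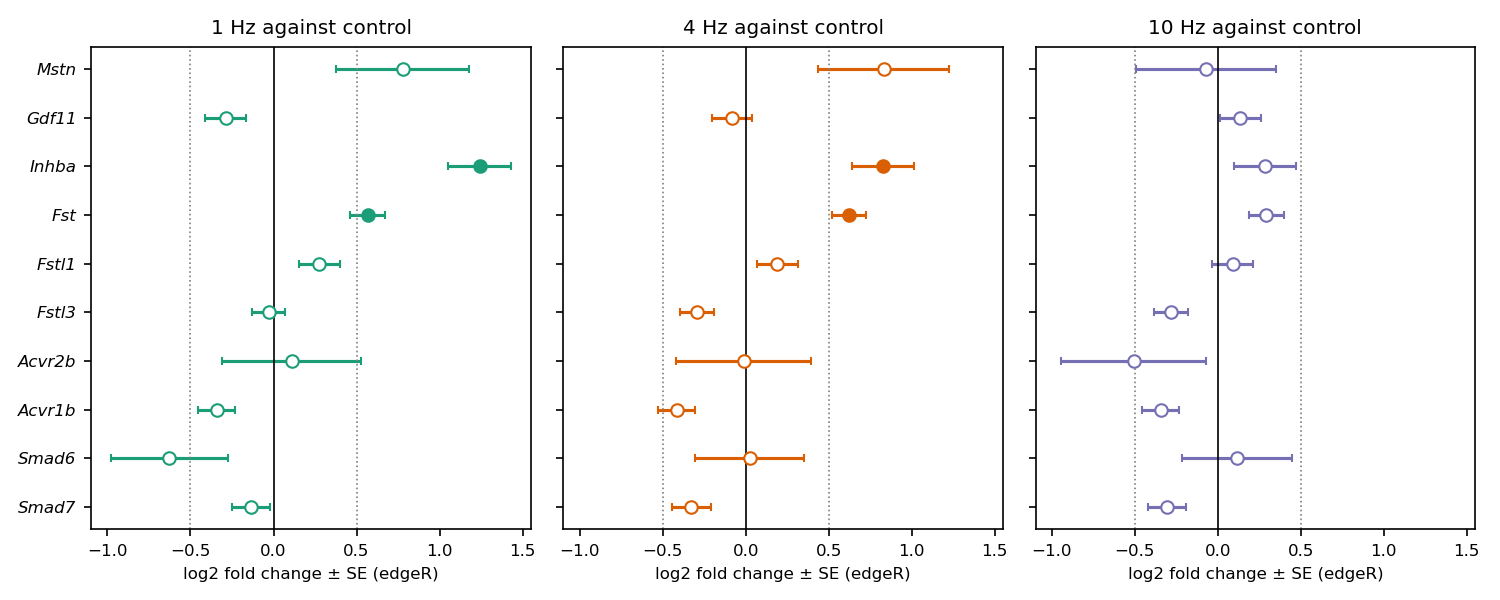
Log2(fold change) of the 10 members against control at 1, 4, and 10 Hz, with the SE from edgeR. Filled points passed the adjusted p and a log2(fold change) beyond 0.5 (dotted lines), which only Inhba and Fst did, at 1 and 4 Hz.

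Ligand and antagonist RNA were set against each other within each library as TPM ratios, given as a description with no test. Inhba over Fst was 1.90 ± 0.399 in control (1.54 to 2.59), 3.45 ± 0.894 at 1 Hz (2.15 to 4.32), 2.52 ± 0.804 at 4 Hz (1.89 to 4.09), and 2.07 ± 0.461 at 10 Hz (1.64 to 2.78) (SD and range, n = 6 each). These ranges overlapped in all conditions. Inhba over Fstl3 was 1.15 ± 0.160 in control (0.927 to 1.36), 3.26 ± 0.780 at 1 Hz (1.97 to 4.01), 2.80 ± 0.576 at 4 Hz (2.20 to 3.68), and 1.79 ± 0.482 at 10 Hz (1.28 to 2.67). For this ratio the ranges at 1 and 4 Hz were separate from control. Fstl3 over Fst was 1.66 ± 0.274 in control (1.24 to 1.99), 1.07 ± 0.170 at 1 Hz (0.783 to 1.28), 0.897 ± 0.191 at 4 Hz (0.690 to 1.26), and 1.19 ± 0.240 at 10 Hz (0.945 to 1.48). Fstl3 had more RNA than Fst in every control library, whereas at 4 Hz the ratio was below 1 in 5 of 6 libraries, replicate 6 being the exception. RNA levels say nothing of the amounts of secreted protein.

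**Figure D4:**
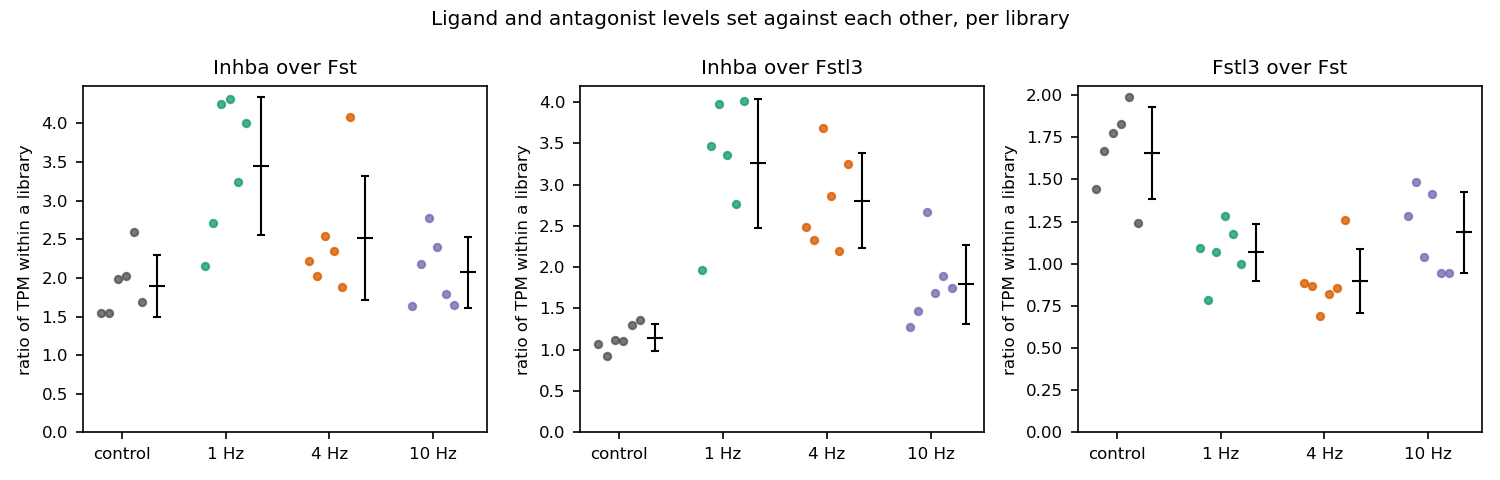
Ratios of TPM within each library (points, 6 per condition, with mean and SD) for Inhba over Fst, Inhba over Fstl3, and Fstl3 over Fst. Inhba over Fstl3 lies at 1.36 or less in control and at 1.97 or more at 1 and 4 Hz.

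Neither receptor was called. Acvr1b, the type I receptor of activin, lay at 14.8 to 19.5 CPM in control with a median of 15.1, at 10.6 to 15.6 at 1 Hz with a median of 12.1, at 10.5 to 13.1 at 4 Hz with a median of 11.8, and at 10.9 to 15.3 at 10 Hz with a median of 12.01. All 6 libraries at 4 Hz were below every control library, as were 5 of 6 at 1 Hz and 5 of 6 at 10 Hz. Its log2(fold change) was -0.34 ± 0.11 at 1 Hz (edgeR adjusted p = 0.0197), -0.42 ± 0.11 at 4 Hz (adjusted p = 0.00443), and -0.34 ± 0.11 at 10 Hz (adjusted p = 0.0703), so that 1 and 4 Hz passed the adjusted p alone. Scaling by total count moved 4 Hz past the fold threshold, to -0.52, where the median of all genes stood at -0.11. Leaving out control replicate 2, the highest control library with 19.5 CPM, ended the pass at 1 Hz (-0.26, adjusted p = 0.0788), as did leaving out 1 Hz replicate 4 (-0.30, adjusted p = 0.0563), and left -0.33 at 4 Hz (adjusted p = 0.0230). Acvr2b, a type II receptor, had 1 to 21 counts per library and 0.189 to 2.23 CPM, and its groups overlapped in every comparison. For Acvr2b a change of the size seen in Fst was not detectable at this depth, with SEs of 0.40 to 0.44 on the log2 scale. Acvr2a, another type II receptor, is not a member and was named after its values were seen. Its means were 35.3 CPM in control, 36.3 at 1 Hz, 36.8 at 4 Hz, and 36.6 at 10 Hz.

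The inhibitory Smads were not called either. Smad7, which competes for the type I receptor, ranged from 42.0 to 67.1 CPM in control with a median of 48.2, from 35.5 to 56.6 at 1 Hz with a median of 46.5, from 37.6 to 42.4 at 4 Hz with a median of 39.7, and from 32.7 to 47.7 at 10 Hz with a median of 40.4. Its log2(fold change) of -0.33 ± 0.12 at 4 Hz passed the adjusted p alone (edgeR adjusted p = 0.0260), with 4 of 6 libraries below every control library, and the values at 1 Hz, -0.14, and 10 Hz, -0.31 (adjusted p = 0.119), did not. Without control replicate 2, the highest control library, the value at 4 Hz was -0.21 and no longer passed (edgeR adjusted p = 0.131). On the log2(TPM + 1) scale Smad7 was called at 10 Hz with -0.53, where the median of all genes stood at -0.09. Smad6, which acts mainly on BMP signals, had 5 to 35 counts per library. Its levels were 1.05 to 3.76 CPM in control, 0.817 to 2.82 at 1 Hz, 1.78 to 3.45 at 4 Hz, and 0.834 to 3.54 at 10 Hz, overlapping throughout. Between 10 and 1 Hz its log2(fold change) was 0.74 ± 0.34 (edgeR adjusted p = 0.0877), and it was called there without 1 Hz replicate 4 (1.03, adjusted p = 0.0278) or without 10 Hz replicate 3 (0.93, adjusted p = 0.0247).

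Counted over the 10 members, 1 Hz against control called 2 upward and 0 downward, where 9.34% of all genes tested were called upward and 8.99% downward. By adjusted p alone 3 passed, beside 35.4% of all genes. At 4 Hz 2 were called upward and 0 downward beside 10.5% and 9.61% of all genes, and 5 passed the adjusted p alone beside 39.4%. Over the members the median difference on the log2 scale was 0.04 at 1 Hz and 0.01 at 4 Hz, against -0.01 for all genes at both. The members' counts were close to these background shares, and both comparisons use the same control libraries. Ranges did not overlap with control for 2 members at 1 Hz and 3 at 4 Hz, the third being Acvr1b. The share of all genes with separate ranges was not computed, so these counts are not read as a result about the members.

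At 10 Hz edgeR called 0 members against control, where 1.24% of all genes were called upward, 0.623% downward, and 4.89% by adjusted p alone. At an unadjusted p below 0.05, 4 members passed there, beside 20.6% of all genes, DESeq2 called 0, and limma on log2(TPM + 1) called 1, Smad7. Between 4 and 1 Hz edgeR called 0 members, with 2 at an unadjusted p below 0.05 beside 26.9% of all genes, and the called shares were 1.59% of all genes upward, 1.40% downward, and 12.3% by adjusted p alone, while DESeq2 called 0 and limma called 1, Inhba. Between 10 and 1 Hz 1 member was downregulated, Inhba, beside 9.45% of all genes upward, 8.49% downward, and 36.3% by adjusted p alone, the last rule passing 3 members. Between 10 and 4 Hz 1 was downregulated, again Inhba, and 2 passed the adjusted p alone, beside 5.32% upward, 5.64% downward, and 22.8% of all genes. In the fit with the small RNA covariate 0 members were called by edgeR in all 6 comparisons, where at most 3.09% of all genes were called, so that a count of 0 is near the background. In that fit 0 to 4 members were at an unadjusted p below 0.05, beside 7.06% to 27.5% of all genes.

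A wider list of 68 genes of the TGF-beta family, written from general knowledge, gave the setting of the members. Of these 52 were tested, and 16, among them Nodal, Bmp2, and Bmp7, were below the count filter. At 1 Hz 13 were upregulated and 3 downregulated, beside the 9.34% and 8.99% of all genes given above, with a median log2(fold change) of 0.20, and at 4 Hz 10 and 4, beside 10.5% and 9.61%, with a median of 0.06, while the median of all genes was -0.01. Of the 16 called at 1 Hz, 10 were also called at 4 Hz, which is 62.5% of the first and 71.4% of the second list, the control libraries being shared. At 10 Hz 1 was called, Inhbb. The small RNA covariate left 0 calls by edgeR among the 52 in each comparison with control, where it left calls in at most 1.64% of all genes. At an unadjusted p below 0.05 that fit had 8, 8, and 13 of the 52 at 1, 4, and 10 Hz, beside 9.92%, 16.9%, and 20.3% of all genes.

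Roles were not tested against each other, and all counts by role are read beside the same background shares. Of 9 other genes tested under the ligands, 6 were upregulated at 1 Hz and 1 was downregulated, and 4 and 1 at 4 Hz. The 9 include Bmp1, which is a procollagen protease despite its name and was not called. Inhbb rose from 4.93 ± 3.26 CPM in control to 15.2 ± 2.50 at 1 Hz, 14.4 ± 3.41 at 4 Hz, and 9.85 ± 4.45 at 10 Hz, with log2(fold change) values of 1.67, 1.60, and 1.04 (edgeR adjusted p = 1.67e-04, 1.72e-04, and 0.0467). The 10 Hz call held in 5 of the 24 fits that left out 1 library. Gdf5, a BMP-type ligand, rose from 3.54 ± 1.08 to 8.02 ± 2.37 CPM at 1 Hz and 8.23 ± 1.74 at 4 Hz, log2(fold change) values of 1.19 and 1.20. Inha, whose product pairs with activin subunits to form inhibin and was named after its values were seen, fell by 0.77 at 1 Hz and 0.80 at 4 Hz on the log2 scale, from 6.08 ± 2.66 CPM in control.

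Of 13 other receptors tested, 3 were upregulated and 1 downregulated at 1 Hz, and 2 and 1 at 4 Hz. Tgfbr3, betaglycan, a co-receptor that presents TGF-beta and inhibin, rose from 3.15 ± 1.22 CPM in control to 10.7 ± 4.41 at 1 Hz and 7.07 ± 1.97 at 4 Hz, with log2(fold change) values of 1.78 and 1.17 (edgeR adjusted p = 4.29e-05 and 0.00210). Of 14 extracellular modulators, 3 were upregulated and 1 downregulated at 1 Hz, and 2 and 2 at 4 Hz. Both that fell at 4 Hz bind family ligands outside the cell, Twsg1, a BMP-binding protein (-0.66, adjusted p = 1.15e-05), and Dcn, decorin (-0.59, adjusted p = 0.00695). Of 16 Smads and regulators, 1 was upregulated at 1 Hz and 2 at 4 Hz, with Pmepa1, a TGF-beta-induced inhibitor named after its values were seen, in both (0.76 and 0.72).

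Of the 52 listed genes tested, 10 Hz against 1 Hz called 1 upward and 9 downward, beside 9.45% and 8.49% of all genes. For 10 Hz against 4 Hz it was 0 and 6, beside 5.32% and 5.64%. For 4 Hz against 1 Hz it was 0 and 1, Thbs1, beside 1.59% and 1.40%. Leaving out 10 Hz replicate 6 raised the listed genes called to 17 for 10 against 1 Hz and to 11 for 10 against 4 Hz. The share of all genes called in that fit was not computed. That library had the lowest small RNA share of its condition, 38.5 CPM, and the part of this share in the change was not tested.

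**Figure D5:**
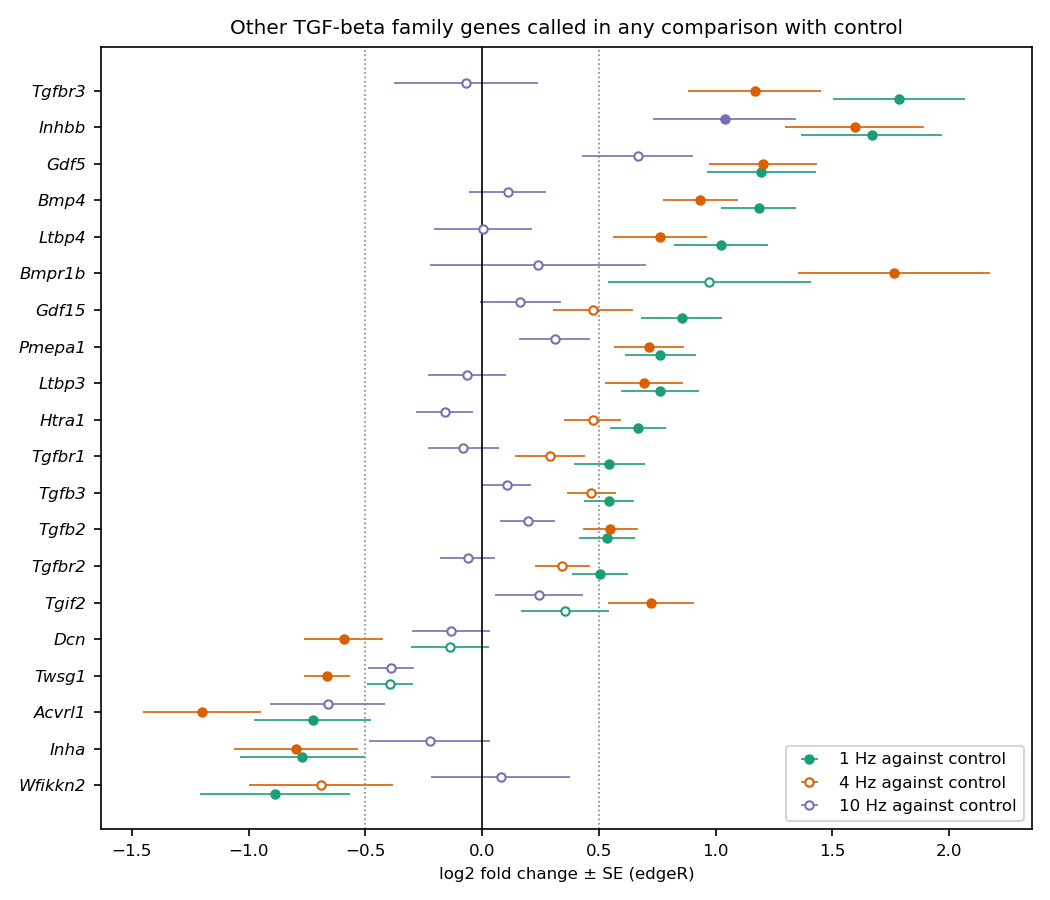
Log2(fold change) against control at 1, 4, and 10 Hz, with the SE from edgeR, for the genes of the wider TGF-beta family list called in any of the 3 comparisons. Filled points passed the adjusted p and the fold threshold (dotted lines), and at 10 Hz that is Inhbb.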

How the data were processed

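RNA of 24 tissues was sequenced by the authors as paired-end reads from directional libraries after poly(A) selection, and low-input samples by ribodepletion. For mapping and counting the authors ran nf-core/rnaseq on GRCm39, and the submitters' processing notes also name STAR, Salmon, BWA 0.7.12-r1039, and bedtools 2.25.0. The deposited values were salmon estimated counts (expected counts that were not normalized, with 6.62% to 10.6% of a library's values not whole) and TPM scaled by the authors within each library. Groups and replicate numbers came from the sample titles.

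Estimated counts were rounded. Genes kept by filterByExpr of edgeR (minimum count 10), 13318 of 56941 and holding 99.8% of counts, were scaled by TMM and tested in 1 quasi-likelihood fit of all 24 libraries (edgeR 4.0.16, limma 3.58.1, R 4.3.3), with common dispersion 0.0233 and 6 contrasts. A gene was called at a Benjamini-Hochberg adjusted p, over all genes tested, below 0.05 with a log2(fold change) beyond 0.5 either way. The self-tests ran on simulated data. Totals of 4.09 to 15.2 M (mega) counts set the counting error, which limits genes with few counts.

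The members, lists, and tests were chosen with earlier results of these data known. Named genes are the 10 members, for each comparison with control of the called genes on the wider list the 3 that rose most and the 3 that fell most at a mean of at least 5 CPM, and the 3 genes whose log2 CPM (prior count 2) correlated best with that of Inhba. Alternatives were DESeq2 size factors, total count scaling, no count filter, a mean of at least 5 CPM, DESeq2 1.42.0 without and with apeglm 1.24.0 (the study's choice), limma on TPM after the log2 with a pseudocount of 1 or 0.1 for genes of mean TPM at least 1, and with a pseudocount of 1 for all genes, a fit of the 12 libraries of a comparison, a block for the replicate number, adjusted p alone, the log2 small RNA share as covariate, and each library left out in turn. A pseudocount pulls the fold change of low genes towards 0. No 2 libraries of a condition agreed within sampling noise (60 pairs, at least 3.16 of chi-square per gene). Positions came from GENCODE M39, whose release may differ from that used by the authors.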

Additional observations from a re-analysis of the deposited data

Results flagged for a closer look

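In 4 of 40 groups of 6 libraries, 1 member in 1 condition, a single library stood apart from the other 5 by Dixon's test at 95% on log2 CPM, which by chance happens in about 1 in 20 groups. Fst was at 56.9 CPM in 4 Hz replicate 6, against 68.5 to 72.0 CPM in the others. Acvr1b was at 19.5 CPM in control replicate 2, against 14.8 to 15.7, and Smad7 was at 67.1 CPM in the same library, against 42.0 to 49.2. Smad6 was at 0.834 CPM in 10 Hz replicate 3, against 2.24 to 3.54, from 8 counts. On the CPM scale itself, a setting chosen after seeing the data, the test did not single out that library, and it did single out 10 Hz replicate 3 for Gdf11, with 38.4 CPM, and 4 Hz replicate 6 for Smad6, with 3.45 CPM.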

How the results depend on the processing

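Of the members' log2(fold changes) under the alternatives other than leaving out a library, 683 kept their direction and their side of the thresholds, 12 no longer passed, 16 passed newly, and 33 changed sign. When each library was left out in turn, the numbers were 1385, 6, 6, and 43. Inhba and Fst at 1 and 4 Hz were called in each of these leave-outs, and those of Inhba under each alternative but the covariate. For Mstn, Acvr2b, and Smad6, with at most 37 counts in a library, depth limits what could be detected. The shared control libraries tie the 3 comparisons with control to one another, and the cause of the changes below was not tested.

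Counts of members called moved by more than 1.5 times as follows. At 1 Hz against control it was 1 with total count scaling and 0 with the small RNA covariate, and at 4 Hz 1 with limma on log2(TPM + 1), with or without its filter, 0 with the covariate, and 5 by adjusted p alone. Of all genes, 18.3% were called at 1 Hz in the main fit, 19.0% with total count scaling, and 0.00751% with the covariate. At 4 Hz the share was 20.1% in the main fit and 20.1% and 8.71% with limma, with and without filter. The covariate left 1.64% and adjusted p alone 39.4%. At 10 Hz against control it was 1 with limma on log2(TPM + 1) or log2(TPM + 0.1), and between 4 and 1 Hz 1 with limma in all 3 forms. The shares of all genes at 10 Hz were 1.86% in the main fit and 1.72% and 1.89% with those forms. Between 4 and 1 Hz they were 3.00% in the main fit and 3.38%, 4.05%, and 1.20% with limma, the last without filter. Between 10 and 1 Hz it was 2 with only the 12 libraries compared, 3 by adjusted p alone, and 0 with the covariate. Of all genes, the main fit called 17.9% there, the 12 libraries 17.2%, adjusted p alone 36.3%, and the covariate fit 1.34%. For 10 against 4 Hz it was 0 with total count scaling, DESeq2 with apeglm, and the covariate and 2 with only the 12 libraries or adjusted p alone. The shares of all genes there were 10.96% in the main fit, 11.4% with total count scaling, and 8.94% with apeglm. The 12 libraries gave 9.91%, adjusted p alone 22.8%, and the covariate fit 0%. Left out in turn, libraries gave 2 to 3 members at 1 Hz and at 4 Hz, 0 to 0 at 10 Hz and between 4 and 1 Hz, 1 to 2 between 10 and 1 Hz, and 0 to 2 between 10 and 4 Hz. Shares of all genes in the leave-outs were not computed.

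Counts of the wider list of 52 tested genes moved by more than 1.5 times as follows, and 24 by adjusted p alone at 1 Hz was at exactly that factor. At 1 Hz it was 9 with limma on log2(TPM + 1) without filter and 0 with the covariate, at 4 Hz 26 by adjusted p alone and 0 with the covariate, and at 10 Hz 5 by adjusted p alone and 0 with limma on log2(TPM + 1) with or without filter, the 12 libraries, and the covariate. Of all genes at 1 Hz, the main fit called 18.3%, unfiltered limma 6.25%, adjusted p alone 35.4%, and the covariate fit 0.00751%. At 4 Hz these shares were 20.1% in the main fit, 39.4% by adjusted p alone, and 1.64% with the covariate. At 10 Hz they were 1.86% in the main fit, 4.89% by adjusted p alone, and 1.72% with limma, or 0.501% unfiltered. The 12 libraries gave 1.16% and the covariate fit 1.53%. Between 4 and 1 Hz it was 0 with DESeq2 and apeglm, 2 and 3 with limma on log2(TPM + 1) and log2(TPM + 0.1), and 3 by adjusted p alone. Of all genes, the main fit called 3.00% there, apeglm 2.06%, those limma forms 3.38% and 4.05%, and adjusted p alone 12.3%. Between 10 and 1 Hz it was 21 by adjusted p alone and 1 with the covariate. Of all genes, the main fit called 17.9% there, adjusted p alone 36.3%, and the covariate fit 1.34%. For 10 against 4 Hz it was 18 by adjusted p alone, 3 with limma on log2(TPM + 1) without filter, and 0 with the covariate. The shares of all genes there were 10.96% in the main fit, 22.8% by adjusted p alone, 2.63% with unfiltered limma, and 0% with the covariate. Left out in turn, libraries gave 11 to 19 at 1 Hz, 14 to 17 at 4 Hz, 0 to 2 at 10 Hz and between 4 and 1 Hz, 9 to 17 between 10 and 1 Hz, and 6 to 11 between 10 and 4 Hz. For these leave-outs too the shares of all genes were not computed.

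The values that changed sign were those of comparisons in which the member was not called in the main fit. Acvr1b between 10 and 1 Hz was 0.00124 with DESeq2 size factors, 0.043 with total count scaling, 0.033 with a mean of at least 5 CPM, 0.0135 with DESeq2, and 0.0105 with apeglm, and between 10 and 4 Hz -0.077 with the covariate. Smad6 at 4 Hz was -0.078 with total count scaling, -0.039 with limma on log2(TPM + 1), with or without filter, and -0.031 on log2(TPM + 0.1), and between 10 and 4 Hz -0.22 with the covariate. Acvr2b at 4 Hz was 0.031 without a count filter, 3.98e-05 with apeglm, 0.21 with limma on log2(TPM + 1), with or without filter, and 0.52 on log2(TPM + 0.1). With the covariate Acvr2b was at -1.04 at 1 Hz, 0.37 between 10 and 1 Hz, and 0.41 between 10 and 4 Hz. Fst between 4 and 1 Hz was -0.11 with limma in all 3 forms, Fstl3 without a count filter 0.00330 at 1 Hz and -0.010 between 10 and 4 Hz, and Gdf11 at 4 Hz 0.14 with the covariate. Smad7 between 10 and 4 Hz was -0.00222 without a count filter, -0.20 with limma on log2(TPM + 1), -0.21 on log2(TPM + 0.1), and -0.020 with the covariate. Mstn with limma on log2(TPM + 1) without filter was at 0.022 at 10 Hz and -0.055 between 4 and 1 Hz.

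Sign changes in the leave-outs fell within these ranges. Acvr1b between 10 and 1 Hz ranged from -0.069 to 0.064. Acvr2b ranged from -0.15 to 0.27 at 1 Hz, -0.31 to 0.14 between 4 and 1 Hz, and -0.21 to 0.15 at 4 Hz. Fstl3 ranged from -0.052 to 0.064 between 10 and 4 Hz and -0.094 to 0.025 at 1 Hz, and Gdf11 at 4 Hz from -0.14 to 5.47e-04. Mstn ranged from -0.32 to 0.27 at 10 Hz and -0.14 to 0.13 between 4 and 1 Hz, Smad6 from -0.026 to 0.28 between 10 and 4 Hz, -0.017 to 0.35 at 10 Hz, and -0.12 to 0.26 at 4 Hz, and Smad7 from -0.032 to 0.073 between 10 and 4 Hz.

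Deviations of same-numbered libraries of different conditions correlated at -0.18 to 0.36, with 9 of 36 highest for the own number. By comparison, the mean correlation was -0.058 to 0.096 for the same number and -0.019 to 0.011 for other numbers. These low values do not settle whether the replicate numbers pair the libraries, and the main fit took them as unpaired. With the replicate number as a block, 2, 2, 0, 0, 1, and 1 members and 18, 15, 1, 1, 13, and 8 listed genes were called in the 6 comparisons. Of all genes, that fit called 18.2%, 20.03%, 1.997%, 3.21%, 17.8%, and 11.02% in the same order. The block changed no member's call and turned the sign of Mstn at 10 Hz, to 0.023.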

Other observations

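The genes whose level followed that of Inhba most closely over the 24 libraries, out of 13317 compared, were Mamdc2 (Pearson r = 0.946 of log2 CPM), C1s1, a complement protease of the extracellular space (0.940), and Has2, a hyaluronan synthase of the cell surface (0.934). After subtracting each condition's mean the values were 0.837, 0.825, and 0.806. The points share library, depth, and condition, so these values describe these libraries only. The 3 genes were picked by this correlation, so their high values and their rise together with Inhba follow in part from the choice. From control to 1 Hz the mean went from 17.5 ± 2.84 to 35.9 ± 7.21 CPM for Mamdc2, from 10.9 ± 2.11 to 28.0 ± 5.63 CPM for C1s1, and from 13.5 ± 4.57 to 31.9 ± 6.34 CPM for Has2 (SD, n = 6 each).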
